A study of Homo sapiens with 8 samples.

Results

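The 10 genes TMPRSS3, IGJ, NKAIN4, LILRB4, CPT1A, KLRK1, TLR10, EGFL7, DDIT4L and NPY, out of 23621 gene rows, differed widely in RNA level between libraries of NALM6 cells that carry the same construct. NALM6 is a widely used human cell line from an acute lymphoblastic leukemia of early B cells. The genes were selected on their FPKM in the WT libraries, those labelled biological replicate A lying far from those labelled biological replicate B. Those WT values are therefore a description here, with no test. What the choice did not use is the level in the SE libraries, and the comparison asks which of the WT replicates departs from them.

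Every library came from NALM6 cells with a doxycycline-inducible HMGN1 construct, HMGN1 being a nucleosome-binding protein. The construct carried wild-type HMGN1 (WT) or the S20,24E mutant (SE), which the labels call deficient in nucleosome binding. Treatment was 6 hours with 100 ng/ml doxycycline (DOX) to induce the construct, or with vehicle, and each construct and treatment has a library A and a library B, 8 in all. WT A thus stands for a DOX and a vehicle library, and so do WT B, SE A and SE B. Whether the libraries that share a letter came from 1 culture, and whether the line is 1 clone, is not stated in the sources used. Poly(A) RNA levels are in FPKM, which scales fragment counts by transcript length and by all fragments mapped, without spike-in normalization.

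The genes come from unrelated families. IGJ (now JCHAIN) encodes the J chain, which joins immunoglobulin units into IgM and IgA polymers and is switched on as B cells turn into antibody-secreting cells. LILRB4 encodes an inhibitory leukocyte immunoglobulin-like receptor, KLRK1 the activating NKG2D receptor of NK and T cells, and TLR10 a Toll-like receptor found mainly on B cells. TMPRSS3 is a type II transmembrane serine protease known from hereditary deafness. NKAIN4 belongs to a family of membrane proteins that bind the sodium-potassium pump. CPT1A is the gatekeeper enzyme of mitochondrial fatty acid oxidation. EGFL7 is a secreted protein of blood vessel walls that interacts with Notch receptors, DDIT4L (REDD2) is an inhibitor of mTORC1 signalling, and NPY is the precursor of the secreted peptide neuropeptide Y.

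Promoter windows of 300 bases, 250 before to 50 after the annotated start, were available in RefSeq (GRCh38.p14) for 7 of the 10 genes, and none for NKAIN4, KLRK1 and TLR10. The FPKM values were made on hg19, so these coordinates go with the sequences alone. The 4 windows printed here belong to the 2 genes with the widest ratio higher in WT A and to the 2 genes lower in WT A with a single annotated start, and they differ in base composition. Capitals mark CG dinucleotides, and each sequence runs 5′ to 3′ on the gene's strand. IGJ and TMPRSS3 were higher in WT A (chr4:70666459-70666758 and chr21:42389100-42389399, both minus strand):
IGJ: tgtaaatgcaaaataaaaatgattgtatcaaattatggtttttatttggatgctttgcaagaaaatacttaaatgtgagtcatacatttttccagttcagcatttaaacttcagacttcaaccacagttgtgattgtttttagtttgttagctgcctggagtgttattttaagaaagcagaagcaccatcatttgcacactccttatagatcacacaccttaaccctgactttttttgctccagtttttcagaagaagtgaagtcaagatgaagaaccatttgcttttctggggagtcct
TMPRSS3: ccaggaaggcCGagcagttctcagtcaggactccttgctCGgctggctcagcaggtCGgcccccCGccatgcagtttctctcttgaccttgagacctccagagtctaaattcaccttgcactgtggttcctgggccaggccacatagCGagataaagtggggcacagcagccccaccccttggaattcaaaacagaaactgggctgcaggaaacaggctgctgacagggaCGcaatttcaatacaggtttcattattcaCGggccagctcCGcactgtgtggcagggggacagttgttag
DDIT4L and NPY were lower in WT A (chr4:100190419-100190718, minus strand, and chr7:24283940-24284239, plus strand):
DDIT4L: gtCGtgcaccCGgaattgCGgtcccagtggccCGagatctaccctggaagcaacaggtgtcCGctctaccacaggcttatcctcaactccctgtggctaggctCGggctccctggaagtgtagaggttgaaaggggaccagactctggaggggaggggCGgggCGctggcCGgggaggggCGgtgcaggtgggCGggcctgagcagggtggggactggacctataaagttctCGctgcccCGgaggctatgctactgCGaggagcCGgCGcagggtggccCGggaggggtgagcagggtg
NPY: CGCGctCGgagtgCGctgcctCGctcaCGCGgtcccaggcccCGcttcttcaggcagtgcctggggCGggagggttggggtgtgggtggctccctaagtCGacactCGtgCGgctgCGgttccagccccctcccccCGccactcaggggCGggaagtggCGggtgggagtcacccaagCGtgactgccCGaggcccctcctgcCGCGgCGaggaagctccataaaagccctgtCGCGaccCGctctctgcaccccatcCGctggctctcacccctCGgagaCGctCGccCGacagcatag

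The IGJ window held 0 CG dinucleotides at 34.3% G and C, TMPRSS3 8 at 56.3%, DDIT4L 17 at 67% and NPY 29 at 71%. LILRB4 had 4, CPT1A had 13, and the windows of EGFL7's 2 annotated starts had 15 and 14. The median over all 35116 windows was 14 at 58.7% G and C, and 96.0% of windows held at least 1. The 3 genes lower in WT A thus had as many CG dinucleotides as the median window or more, and the 4 higher in WT A with a window had fewer. The line between them is narrow, at 13 for CPT1A and 14 for the second EGFL7 window. Of all windows, 51.7% held at least as many as CPT1A, 48.9% and 50.3% as the EGFL7 windows, and 46.0% as DDIT4L. Nothing is read from this split, as the genes are few and were chosen on the WT difference. In addition, 7 motifs were searched on both strands, each hit counted separately. The GC box (GGGCGG) stood 3 times in DDIT4L, 2 times in NPY and 1 time in the second EGFL7 window, against 45.0% of all windows with 1 or more. DDIT4L also held a TATA box (TATAAA, 11.5% of windows), and 2 copies of the E-box CAGGTG (20.6%). The ETS core AGGAAG (33.6% of windows) stood in TMPRSS3, LILRB4, NPY and both EGFL7 windows. The EBF1 core (CCCNNGGG, 19.1%) stood in LILRB4, CPT1A and the second EGFL7 window. The IKAROS core (TGGGAA, 24.0%) and the CCAAT box (CCAAT, 34.6%) were found in the second EGFL7 window alone. IGJ matched none of the 7, which says only that these letters are not in the window.

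Of the 10 genes, 7 were higher in WT A than in WT B, and the first of them encode proteins of immune cells. IGJ had 12.5 and 12.6 FPKM in the WT A DOX and vehicle libraries, 2.52 and 2.17 FPKM in the WT B DOX and vehicle libraries, 0.733 and 0.972 FPKM in SE A and 1.22 and 0.971 FPKM in SE B. Both WT A libraries thus lay far above all others, with a mean 5.35-fold that of WT B and 12.9-fold that of the 4 SE libraries. WT B was itself above every SE library, by 2.41-fold in the means.

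KLRK1 reached the highest level of the immune receptors, with 43.0 FPKM (DOX) and 45.2 FPKM (vehicle) in WT A against 17.6 and 17.3 FPKM in WT B. The SE libraries held 8.86 and 8.94 FPKM in SE A and 8.95 and 9.51 FPKM in SE B. The order was WT A, WT B and then SE, with SE A and SE B not apart beyond their spread. The KLRC4-KLRK1 read-through row, which shares exons with KLRK1, stood at 0.0439 FPKM or less in every library, and how reads were split between the rows is not known.

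TLR10 had 12.2 and 12.4 FPKM in WT A DOX and vehicle cells, against 4.83 and 4.75 FPKM in WT B. It had 4.14 and 4.11 FPKM in SE A and 4.15 and 4.40 FPKM in SE B. WT B lay 1.14-fold above the SE mean, close to the SE libraries, while WT A was 2.92-fold above it. LILRB4 had 13.3 and 12.4 FPKM in WT A, 4.59 and 4.45 FPKM in WT B, 4.26 and 4.35 FPKM in SE A and 2.15 and 1.99 FPKM in SE B. Its WT B and SE A libraries were neighbours in the order, with SE B lowest.

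TMPRSS3 showed the widest ratio of the genes higher in WT A. It had 11.8 and 11.9 FPKM in WT A, 2.004 and 1.983 FPKM in WT B, 5.57 and 5.33 FPKM in SE A and 3.11 and 2.69 FPKM in SE B. WT A was above and WT B below every SE library. NKAIN4 had 7.61 and 7.60 FPKM in WT A, 2.07 and 2.59 FPKM in WT B, 19.2 and 18.9 FPKM in SE A and 9.74 and 9.72 FPKM in SE B. Both WT letters lay below all SE libraries, and WT B was the lower. CPT1A had 7.45 and 6.88 FPKM in WT A, 2.75 and 2.64 FPKM in WT B, 8.67 and 8.34 FPKM in SE A and 7.87 and 7.18 FPKM in SE B. Here WT B stood alone at the low end, and the WT A range overlapped that of SE B.

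EGFL7, DDIT4L and NPY went the other way. EGFL7 had 1.680 and 1.999 FPKM in WT A DOX and vehicle cells, against 11.7 and 13.8 FPKM in WT B. The SE libraries fell between them, at 5.19 and 5.59 FPKM in SE A and 9.17 and 8.49 FPKM in SE B. The WT B mean was 6.91-fold the WT A mean, the widest ratio among the 10 genes. The row of MIR126, which lies within EGFL7, was at 0 in every library.

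DDIT4L had 5.64 and 5.55 FPKM in WT A, 34.2 and 33.3 FPKM in WT B, 35.4 and 36.1 FPKM in SE A and 22.3 and 23.3 FPKM in SE B. WT B fell inside the SE range, and WT A alone was outside it, at 0.191 of the SE mean. NPY had 12.3 and 11.5 FPKM in WT A, 47.0 and 50.5 FPKM in WT B, 64.9 and 58.9 FPKM in SE A and 54.7 and 52.6 FPKM in SE B. WT B was a little under the SE libraries, at 0.844 of their mean, and WT A at 0.206 of it.

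**Figure D1:**
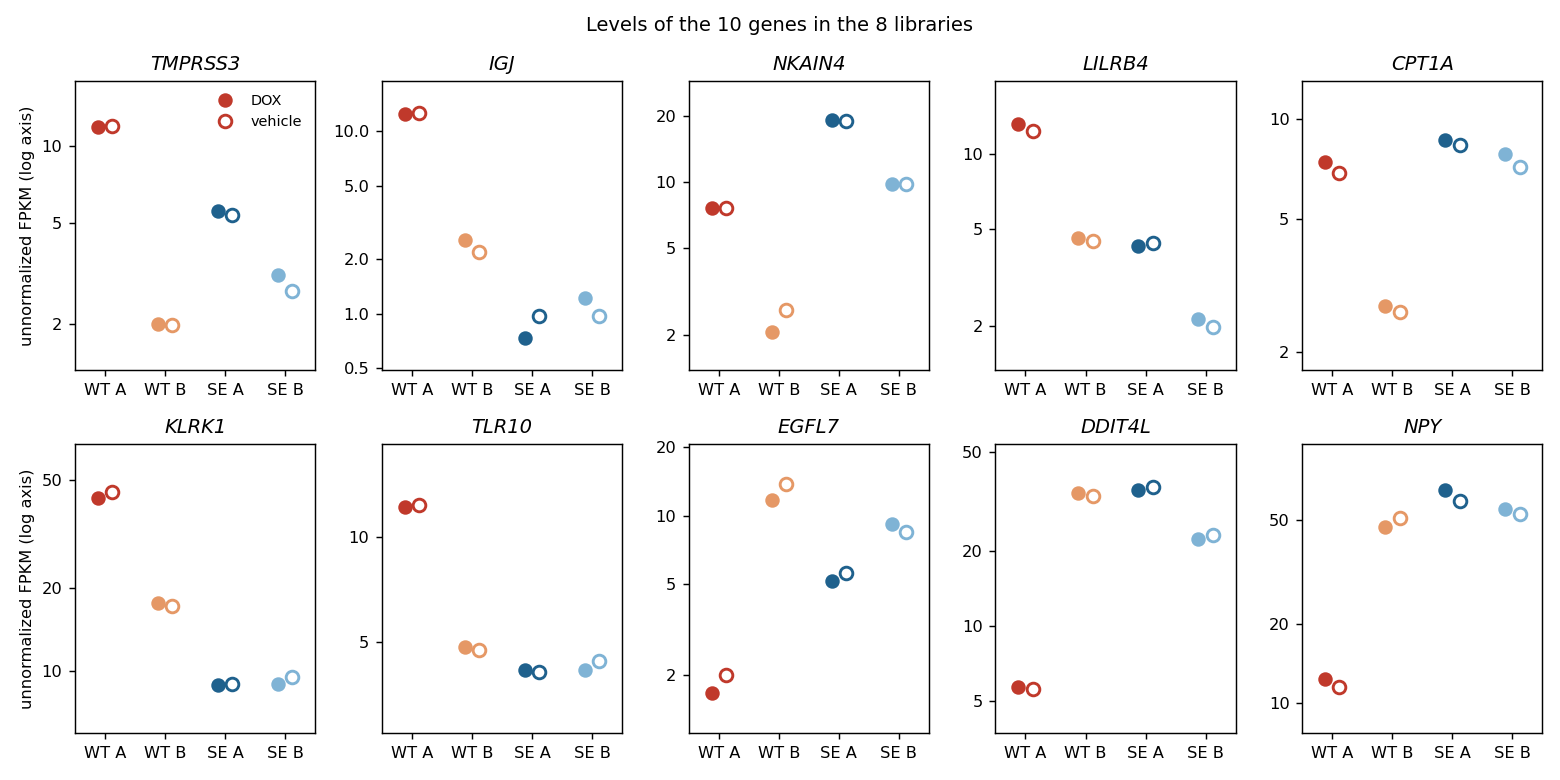
Unnormalized FPKM of the 10 genes (log axis) in WT A, WT B, SE A and SE B, with 1 point per library, filled for DOX and open for vehicle. The DOX and vehicle points of a letter lie close together, and WT A is apart from WT B in all 10 panels.

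In all 10 genes the WT A and WT B libraries did not overlap, and the choice of the genes fixes this. Written as log2(FPKM + 0.1), the scale of every log2 value here, the difference WT A minus WT B had sizes between 1.33 (KLRK1) and 2.72 (EGFL7). DOX and vehicle libraries of 1 letter differed by at most 0.363 (IGJ in SE A), with a median of 0.0608 over 40 such differences. At least 2-fold in every pair of WT libraries, 7 of the 10 were higher and 3 lower in WT A, against 52 (0.459%) and 51 (0.45%) of the 11340 genes with a mean of at least 1 FPKM. At 4-fold, 2 were higher (TMPRSS3, IGJ) and 2 lower (EGFL7, DDIT4L), against 12 of all genes in each direction (0.106% each). The choice used this contrast, so nothing is read from these counts. The 10 are not the widest apart: without rows named for small RNAs, EGFL7 ranked 9 and KLRK1 58 of 11042 genes by size of the WT difference.

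WT A was the replicate farther from the SE libraries for 8 of the 10 genes, and WT B for NKAIN4 and CPT1A. On the log2 scale, IGJ stood 3.58 above the SE mean in WT A and 1.20 above it in WT B. KLRK1 stood at 2.27 in WT A and 0.94 in WT B, LILRB4 at 2.07 in WT A and 0.58 in WT B, and TLR10 at 1.53 in WT A and 0.19 in WT B. All 4 of these immune genes were above the SE mean in both WT letters. TMPRSS3 was at 1.55 in WT A and -0.96 in WT B, and EGFL7 at -1.86 in WT A and 0.87 in WT B. DDIT4L was at -2.33 in WT A and 0.24 in WT B, and NPY at -2.27 in WT A and -0.24 in WT B. The 2 exceptions were NKAIN4, at -0.83 in WT A and -2.51 in WT B, and CPT1A, at -0.16 in WT A and -1.53 in WT B. The share of 8 in 10 is set beside 64.8% of all genes tested, and 82.9% (68 of 82) of the genes at least 2-fold apart between WT letters, small RNA names left out. The members' share is close to that second value, so it is nothing particular to them. The spread of the SE libraries bears on the reading: WT A alone lay outside the SE range for DDIT4L and WT B alone for CPT1A. TMPRSS3 and EGFL7 had WT A and WT B outside on opposite sides, and the other 6 had both outside on the same side. Of the 82 genes, 35 (42.7%) had WT A alone outside, 3 (3.66%) WT B alone, 24 (29.3%) both on opposite sides, 19 (23.2%) both on the same side and 1 neither. In the normalized table WT A was also the farther for 8 genes, with the same 2 exceptions, beside 88.1% of all genes tested. There the median of all genes was 0.54 above the SE mean in WT A and 0.32 above it in WT B. In the unnormalized table these medians were 0.016 and 0.020. A shift of all genes thus enters the 88.1%, and it is not read as agreement between the tables.

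**Figure D2:**
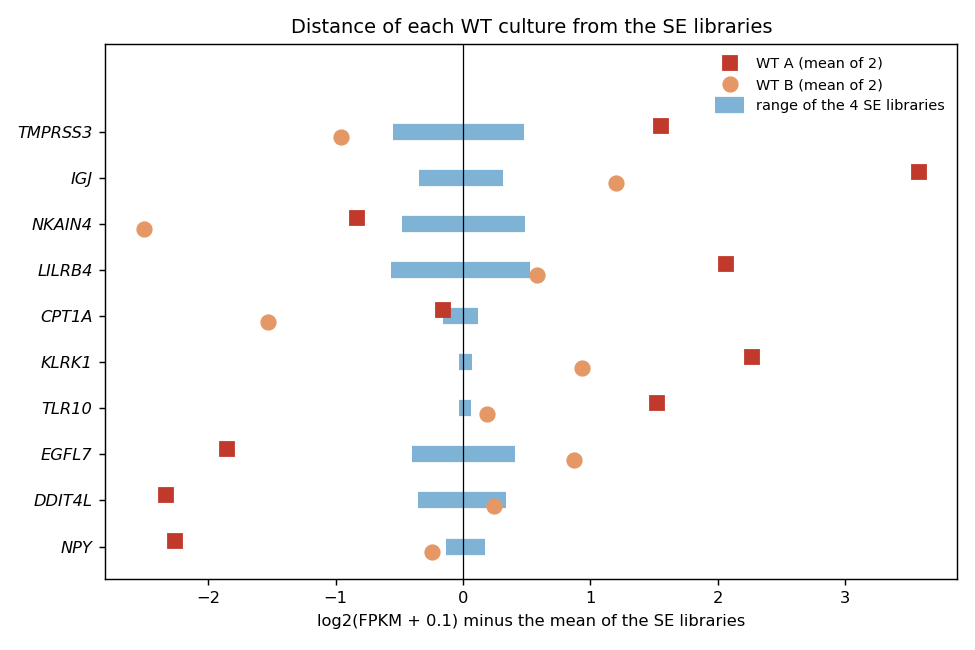
Mean log2(FPKM + 0.1) of WT A (squares) and WT B (circles, 2 libraries each) minus the mean of the 4 SE libraries, whose range is the blue bar. The squares are farther from 0 than the circles except for NKAIN4 and CPT1A.

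The SE libraries gave a test that the choice did not use: whether the same genes also differed between SE A and SE B. LILRB4 was higher in SE A by 1.02 ± 0.053 on the log2 scale (standard error; limma adjusted p = 0.000168), NKAIN4 by 0.96 ± 0.090 (adjusted p = 0.000741) and TMPRSS3 by 0.89 ± 0.069 (adjusted p = 0.000457). EGFL7 fell by 0.70 ± 0.107 in SE A against SE B (adjusted p = 0.00361). With A set against B in both constructs, these 4 had the direction seen in WT, with smaller sizes. Nothing in the labels links letter A of WT to letter A of SE, so a like or opposite direction rests on the lettering alone. DDIT4L was higher in SE A by 0.65 ± 0.030 (adjusted p = 0.00013), while in WT it was lower in A, and in the normalized table its difference of 0.39 did not pass (adjusted p = 0.0782). NPY was higher in SE A by 0.20 ± 0.060 (adjusted p = 0.0367), but -0.05 in the normalized table. Without the SE A DOX library NPY's adjusted p was 0.179, and without the SE B vehicle library 0.154.

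The other 4 did not pass. CPT1A had 0.18 (95% interval 0.032 to 0.321, limma adjusted p = 0.0575, and -0.08 in the normalized table) and IGJ -0.33 (95% interval -0.696 to 0.038, adjusted p = 0.133). KLRK1 had -0.05 (95% interval -0.144 to 0.042, adjusted p = 0.335) and TLR10 -0.05 (95% interval -0.142 to 0.044, adjusted p = 0.352). Both intervals end far short of the WT difference of 1.33 for KLRK1 and 1.34 for TLR10. That 6 of 10 passed in either direction stands beside 39.7% (4503) of all 11340 genes. Of the 10, 5 were higher in SE A, against 15.1% (1708) of all genes, and 1 lower, against 24.6% (2795). The normalized table called 1084 genes, 106 higher and 978 lower, with the median of all genes at -0.27. The spread in this fit is that between the DOX and vehicle libraries of a letter. It may be technical, and p-values measure no more than it.

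**Figure D3:**
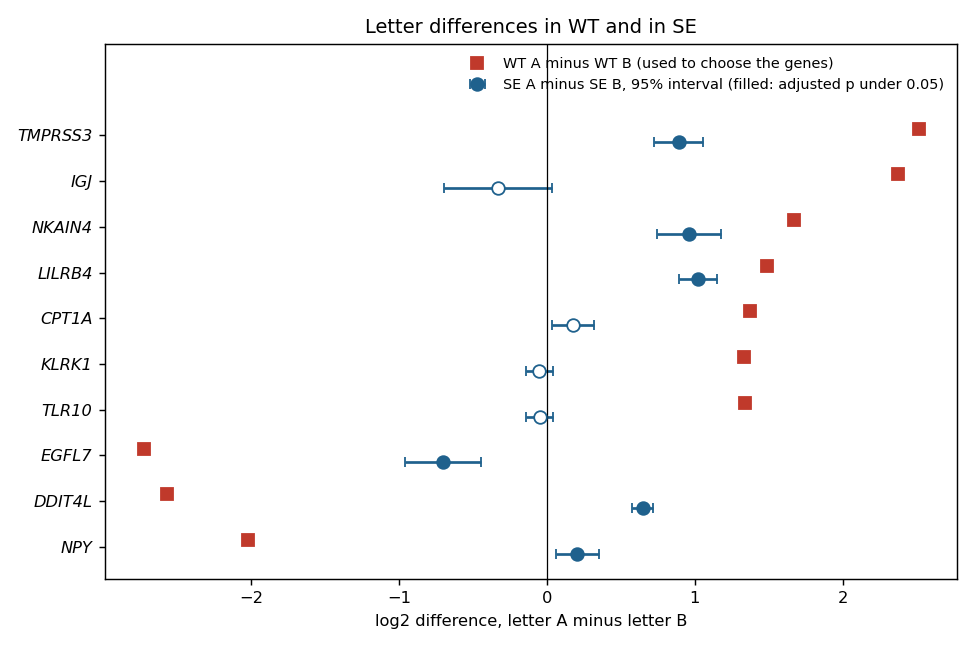
log2 difference of letter A minus letter B for each gene, in WT (squares, no error shown, since it chose the genes) and in SE (circles with 95% intervals from limma, filled where the adjusted p is under 0.05). DDIT4L and NPY lie left of 0 in WT and right of it in SE.

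With small RNA names left out, 82 of 11042 genes (0.743%) were at least 2-fold apart between letters in WT and 23 (0.208%) in SE. Of these, 3 were in both, 3.66% of the WT and 13.0% of the SE genes, and none of the 3 is among the 10.

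No call for DOX was made among the 10 genes. With limma on construct and treatment means, 0 of 10 passed in WT, beside 5 of all genes (0.0441%), and 0 of 10 in SE, beside 6 (0.0529%). All of these calls are rows with small RNA names, and at an unadjusted p under 0.05 there were 38 genes in WT and 34 in SE. This fit holds the difference between letters in its error, and the 10 genes were chosen for a wide one in WT. The interval for DOX minus vehicle in WT therefore ran from -1.30 to 1.26 for KLRK1, the narrowest, and from -2.93 to 2.46 for EGFL7, the widest. A call was thus hardly possible for these genes in either construct, and nothing is read from the 0 of 10. With the letters as a term of the limma fit, 0 of 10 passed in WT, beside 6 of all genes (0.0529%). In SE that fit passed 0 of 10, beside 3 (0.0265%). Within a letter, EGFL7 had 1.68 FPKM with DOX and 1.999 FPKM with vehicle in WT A, and 11.7 FPKM with DOX and 13.8 FPKM with vehicle in WT B. The HMGN1 row itself was not higher with DOX than with vehicle in any letter: it had 793 FPKM with DOX and 809 FPKM with vehicle in WT A, 795 with DOX and 796 with vehicle in WT B, 1421 with DOX and 1427 with vehicle in SE A, and 1061 with DOX and 1066 with vehicle in SE B. Whether reads of the construct fall on this row is not stated in the sources used.

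Each gene was set beside a list of its family or pathway, and in 10 of 10 lists no other tested gene was at least 2-fold apart in every WT pair. Over all genes the share is 0.459% higher and 0.45% lower in WT A, so 0 of 87 list genes is near the background and nothing particular to the lists. Over all genes tested the median WT A minus WT B was -0.0049. The normalized table turned the sign of the WT difference of 24 of the 87 tested list genes, among those named below ATP1B3, FXYD5, PTPN11, HADH, MICB, ULBP2, ULBP3, IRAK1, EIF4EBP1, TXNIP, IGLL1, IRF4 and MAML1. Of 14 membrane serine proteases, TMPRSS6 alone had a mean of 1 FPKM. It was 0.42 higher in WT A than in WT B, and higher in SE A by 0.72 (limma adjusted p = 0.00609), or 0.47 in the normalized table (adjusted p = 0.14). TMPRSS5 and TMPRSS9 stayed under 1 FPKM in every library. The antibody secretion list had a median of 0.14 over 10 tested genes. MZB1, a chaperone of antibody-secreting cells, had means of 153 ± 1.77 FPKM in WT A and 128 ± 5.84 FPKM in WT B (SD, n = 2 each). XBP1, the transcription factor of plasma cells, had 285 ± 3.96 FPKM in WT A and 284 ± 1.33 FPKM in WT B (SD, n = 2 each). TNFRSF17 (BCMA), the plasma cell receptor, was not tested for its low mean, but had 1.90 ± 0.208 FPKM in WT A and 0.364 ± 0.077 FPKM in WT B (SD, n = 2 each), with means of 0.307 FPKM in SE A and 0.393 FPKM in SE B. Like IGJ it was highest in WT A. In SE, 1 of the 10 tested was higher in A (POU2AF1, 0.36) and 3 lower (IGLL1, IRF4, FKBP11), IGLL1 at -0.60 (limma adjusted p = 8.94e-05), and in the normalized table IGLL1 alone passed.

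KLRK1 signals in human cells through the adaptor HCST (DAP10), and HCST came nearest to it in the list of receptors, adaptors and ligands. HCST had means of 5.95 ± 0.067 FPKM in WT A and 2.63 ± 0.473 FPKM in WT B (SD, n = 2 each), a difference of 1.16, with 0.97 in the closest pair. HCST was also higher in SE A than in SE B, by 0.64 (limma adjusted p = 0.0154), or 0.37 in the normalized table (adjusted p = 0.116). The NKG2D ligands MICB, ULBP2 and ULBP3 had -0.22, -0.06 and -0.11 in WT, and MICB was lower in SE A, at -0.28, as the 1 gene of the list called in the normalized table. The median over the 6 tested genes was -0.16.

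The Toll-like receptor list had a median of 0.22 over 14 tested genes, the highest of the lists with more than 1 tested gene. TLR9, which senses DNA, had 2.84 ± 0.032 FPKM in WT A and 1.38 ± 0.104 FPKM in WT B (SD, n = 2 each). TLR4, which senses lipopolysaccharide, had 7.16 ± 0.053 FPKM in WT A and 4.35 ± 0.258 FPKM in WT B (SD, n = 2 each). LY96, the TLR4 partner, differed by 0.80 in WT. The adaptor MYD88 differed by 0.12, the kinase IRAK1 by -0.14 and the chaperone UNC93B1 by 0.10. Of the 14, 7 were higher in SE A, beside 15.1% of all genes, among them LY96 by 1.00 (limma adjusted p = 0.00274), CD180 by 0.68, LY86 by 0.67 and TLR9 by 0.48. Lower there, beside 24.6% of all genes, were UNC93B1 at -0.32 and TICAM1 at -0.27, while TLR10 had -0.05. In the normalized table LY96 alone was called higher (0.73), UNC93B1 and TICAM1 lower, and TLR1 and TRAF6 turned in sign, with a list median of -0.04 beside -0.27 for all genes.

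LILRA2 had the lowest WT value of the leukocyte immunoglobulin-like receptors, -0.83, opposite in sign to LILRB4. LAIR1 had -0.33. The phosphatases that such inhibitory receptors recruit had 0.44 for PTPN6 and -0.04 for PTPN11. In SE, 1 of 7 was higher in A (PTPN6, 0.09) and 1 lower (PTPN11, -0.14), while the normalized table called 0 and turned the sign of PTPN6. Of the sodium-potassium pump list, ATP1B3 had -0.11 and FXYD5 had -0.19 in WT, and neither passed in SE. In that list, 12 rows stayed under 1 FPKM.

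Fatty acid oxidation genes had a median of 0.12 over 22 tested genes, between -0.44 and 0.35. The electron carrier ETFA had 0.35, and the enzymes ECHS1 and HADH 0.22 and -0.19. In SE, 4 of 22 were higher in A and 7 lower, among them PPARD at 0.36 and HADH at -0.23, close to the shares of 15.1% higher and 24.6% lower over all genes, while the normalized table called 0 and turned the signs of HADHA and SLC25A20. The REDD and mTORC1 list had a median of -0.11 over 16 tested genes. DDIT4 (REDD1), the paralog of DDIT4L, had 55.1 ± 2.85 FPKM in WT A and 46.5 ± 1.19 FPKM in WT B (SD, n = 2 each), a difference of 0.24 opposite in sign to DDIT4L. TXNIP, an inhibitor of glucose uptake, was among 6 genes of this list higher in SE A (0.85, limma adjusted p = 0.00013), and EIF4EBP1, a target of mTORC1, among 4 lower (-0.43, adjusted p = 0.000272), where all genes had 15.1% higher and 24.6% lower. In the normalized table TXNIP alone was called higher and EIF4EBP1, AKT1S1 and RPTOR lower, and RPS6KB1, SESN2, TBC1D7 and TSC1 turned in sign.

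EGFL8, the closest relative of EGFL7, had -0.77 in WT, with 3.27 ± 0.134 FPKM in WT A and 5.64 ± 0.327 FPKM in WT B (SD, n = 2 each). NOTCH1 had -0.59 in WT and alone of 6 tested genes passed in SE (-0.25, limma adjusted p = 0.0497, and 0.0767 in the normalized table). RBPJ, DTX1 and MAML1 of Notch signalling had 0.09, 0.12 and -0.02 in WT. Of the neuropeptide Y system, PAM, which amidates such peptides, was the 1 gene tested. It had 6.21 ± 0.092 FPKM in WT A and 9.43 ± 0.181 FPKM in WT B (SD, n = 2 each), a difference of -0.60, and it was higher in SE A by 0.27 (limma adjusted p = 0.00168), but by 0.007 in the normalized table (adjusted p = 0.974). PYY and PPY stayed under 1 FPKM.

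**Figure D4:**
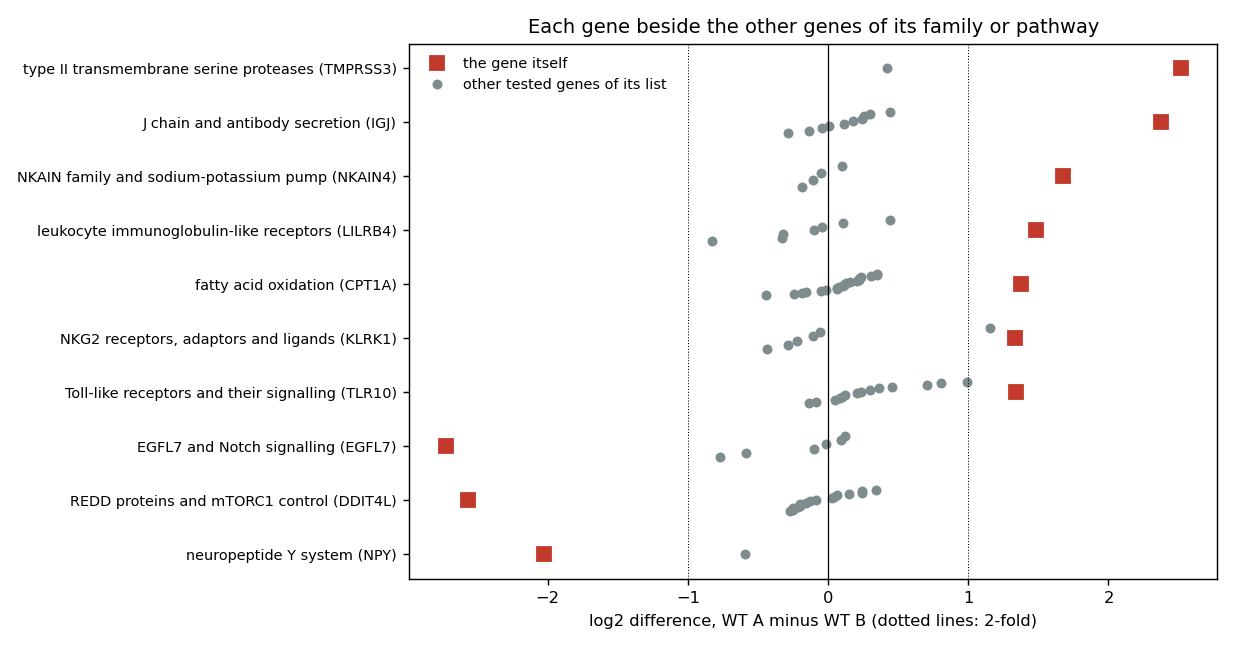
WT A minus WT B on the log2(FPKM + 0.1) scale for each of the 10 genes (squares) and the other tested genes of its list (circles). HCST at 1.16 and TLR9 at 0.99 come closest to the squares of their lists.

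Genes of like pattern were sought among those at least 4-fold apart in every WT pair, by Pearson's r over the 8 libraries, which share 2 constructs and 4 letters. As a description, BCL6B (r = 0.992), ZNF43 (0.983), HAPLN3 (0.974), MEGF6 (0.972) and CD34 (0.965) were closest to the mean of EGFL7, DDIT4L and NPY, out of 6 candidates. CD34, a surface antigen of blood progenitors, had 0.0930 and 0.0765 FPKM in WT A, 1.10 and 1.18 FPKM in WT B, 1.71 and 1.83 FPKM in SE A and 1.05 and 1.27 FPKM in SE B. ZNF43, a zinc finger gene, had 0.0508 and 0.0431 FPKM in WT A, against 1.96 and 1.83 FPKM in WT B and 1.87 to 2.44 FPKM in SE. As with DDIT4L, both WT A libraries stood alone at the low end. DDIT4L itself had r = 0.979, NPY 0.972 and EGFL7 0.935.

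For the 7 genes higher in WT A there were 3 candidates. LSP1, an actin-binding protein of leukocytes, had r = 0.876, with 2.52 and 2.67 FPKM in WT A, 0.392 and 0.371 FPKM in WT B, 1.52 and 1.70 FPKM in SE A and 0.382 and 0.284 FPKM in SE B. PRPS2, an enzyme of nucleotide synthesis, had r = 0.587, with 3.39 and 3.87 FPKM in WT A, 0.0797 and 0.0761 FPKM in WT B, and 2.24 to 3.04 FPKM in SE. MSH6, a DNA mismatch repair gene, had r = 0.505, with 36.6 and 36.3 FPKM in WT A, 7.90 and 7.70 FPKM in WT B, and 30.9 to 37.5 FPKM in SE. WT B was the lowest for both genes and far from the other libraries, with WT A above the SE libraries for PRPS2 and inside their range for MSH6. The 7 genes varied among themselves: r with their own mean ran from 0.230 for NKAIN4 and 0.419 for CPT1A to 0.956 for TMPRSS3.

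All 17 B-lineage markers were expressed at a mean of 1 FPKM or more, but not all were level between letters. DNTT had the lowest WT A minus WT B difference, -0.85, with means of 130 FPKM in WT A, 235 FPKM in WT B, 246 FPKM in SE A and 280 FPKM in SE B. RAG1 had -0.56. MS4A1 had the highest, 0.74, with 5.18 FPKM in WT A, 3.07 FPKM in WT B, 3.35 FPKM in SE A and 1.19 FPKM in SE B. BLNK had 0.55. Of 15 T and NK cell markers NKG7 alone reached a mean of 1 FPKM. CD3G, CD2, CD7, TRAT1, NCAM1 and NCR1 were at 0 in every library and KLRD1 at 0.01 FPKM or less. The list summed to 1.93 to 2.46 FPKM in WT A, 3.05 to 3.53 FPKM in WT B, 3.81 to 4.19 FPKM in SE A and 2.83 to 2.91 FPKM in SE B. NKG7 had means of 1.79 FPKM in WT A and 2.96 FPKM in WT B, and PRF1 0.249 FPKM in WT A and 0.084 FPKM in WT B. The part of such cells in the KLRK1 level was not tested. Of 13 myeloid markers LYZ, CD33 and LILRB2 reached 1 FPKM, and ELANE, S100A8 and S100A9 were at 0. Their summed level was 7.16 to 7.41 FPKM in WT A and 4.57 to 5.22 FPKM in WT B. In SE it was 6.04 to 6.36 FPKM in SE A and 4.76 to 5.20 FPKM in SE B. Like LILRB4, the sum was higher in A than in B in both constructs, and its part was not tested. The sum was also higher in SE A than in WT B, where LILRB4 was not (means of 4.31 FPKM in SE A and 4.52 FPKM in WT B). LYZ made up most of the gap in WT, with a mean of 4.29 FPKM in WT A and 1.62 FPKM in WT B. In SE it had 1.59 FPKM in SE A and 1.23 FPKM in SE B. LILRB2, of the same family as LILRB4, went the other way in WT, with 1.83 FPKM in WT A and 2.33 FPKM in WT B. It had 2.20 FPKM in SE A and 1.84 FPKM in SE B. The neural list, with TUBB3, DBH and ENO2 at 1 FPKM or more of 10, summed to 22.1 to 22.2 FPKM in WT A, 29.8 to 30.4 FPKM in WT B, 26.9 to 27.4 FPKM in SE A and 28.7 to 30.2 FPKM in SE B. The sum was lower in A in both constructs, whereas NPY was lower in A in WT and not in SE. TUBB3 made up most of the sum, with means of 19.3 FPKM in WT A, 24.8 FPKM in WT B, 21.5 FPKM in SE A and 24.1 FPKM in SE B. ENO2 went with TUBB3 in both constructs, while DBH was higher in SE A, at 2.34 FPKM, than in SE B, at 1.48 FPKM. The part of such cells was not tested. SNAP25, STMN2 and TH were at 0. Of 10 endothelial and stromal markers TAGLN and ACTA2 reached 1 FPKM, and of 9 erythroid markers 0. The plasma cell list without IGJ had 4 of 7 markers at 1 FPKM or more, and MZB1, XBP1 and TNFRSF17 of that list are given above. SDC1 went the other way from IGJ, with means of 5.13 FPKM in WT A, 6.28 FPKM in WT B, 8.05 FPKM in SE A and 8.29 FPKM in SE B. IRF4 had means of 52.0 FPKM in WT A and 53.5 FPKM in WT B, so the list did not move as 1 with IGJ. In bulk RNA, fewer cells of a type and less RNA per cell cannot be told apart.

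The depth of the libraries is known only in relative terms, from the smallest steps between low values. It ran from 0.757 (WT B vehicle) to 1.141 (SE A DOX) of the WT A vehicle library, with both WT B libraries at or under 0.814. No counting intervals can be given. FPKM removes a shift shared by all genes, and in the normalized table the median of all genes for WT A minus WT B was 0.22, where the 10 genes had -2.45 to 2.68 with unchanged signs.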

How the data were processed

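RNA was sequenced from 8 NALM6 libraries, 2 for each of 4 construct and treatment groups, with ERCC spike-in RNA added to each sample per the labels' protocols. The authors deposited 2 FPKM tables, 1 unnormalized and 1 normalized, each with 23713 rows including 92 spike-ins. Tools named in the submitters' processing notes are HISAT and Cufflinks 2.0.0, with the genome hg19. How the normalized table was made is not given in the sources. Its spike-in rows summed to between 7050 and 7166 in the 8 libraries, against 5675 to 10042 in the unnormalized table. The spike-in sums are thus near level in the normalized table alone. FPKM divides by transcript length and mapped fragments, so a shift shared by all genes is lost in the unnormalized table, and rows that share exons can split reads.

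The 10 genes and all lists were chosen with earlier results of these data known. Genes named beyond the 10 are the 3 with the highest mean in each list, list genes that passed a test (a selection where many did) or stood at a list's extreme, up to 5 per direction by likeness of pattern, and marker genes. List extremes, TNFRSF17, HMGN1 and rows overlapping the 10 were chosen after their values were seen.

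Values were analysed as log2(FPKM + 0.1), which understates changes of low genes. In R 4.3.3, limma 3.58.1 with empirical Bayes moderation and a trend was fitted to the 11340 genes with a mean of at least 1 FPKM, all 10 included, with Benjamini-Hochberg adjustment over all of them and a two-sided threshold of 0.05. One fit had means for WT A, WT B, SE A and SE B, the other for the 4 construct and treatment groups. Small RNA names are those that begin with RNU, RN7, RNA5, RNY, VTRNA, MIR, SNOR or SCARNA. An exact permutation test of 2 libraries against 2 cannot give a p under 0.333. The procedure was run on simulated data with the spread within letters but, for the DOX fits, no difference between letters. It therefore gives no measure of what the DOX fits could detect here. Alternatives were the normalized table, equal library medians, other pseudocounts, other filters, small RNA names left out, other fits and each library left out. A gene that the naming rule selects is left out of the text.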

Additional observations from a re-analysis of the deposited data

Results flagged for a closer look

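For 4 genes the libraries of letter A lay on opposite sides of those of letter B in the constructs, and the difference between the constructs was not tested. DDIT4L was 2.57 lower in WT A than in WT B and 0.65 higher in SE A than in SE B, so that the log2 differences lie -3.22 apart (WT minus SE). NPY had -2.02 in WT and 0.20 in SE, -2.23 apart. KLRK1 had 1.33 in WT and -0.05 in SE, 1.38 apart, and TLR10 1.34 in WT and -0.05 in SE, 1.39 apart. For KLRK1 and TLR10 the 95% intervals of the SE difference include 0, so an opposite direction is not shown for them. Nothing in the labels links letter A of WT to letter A of SE. In the normalized table NPY had -1.79 in WT and -0.05 in SE, no longer opposite.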

How the results depend on the processing

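The 10 genes kept the sign of their WT difference in every library pair and in the normalized table, and WT A was farther from the SE libraries for 8 of 10 under each setting but a mean of at least 5 FPKM, which IGJ did not reach and where it was 7 of 9. Leaving out 1 library each (added after the data were seen) also gave 8 such genes each time. The share of all genes with WT A farther was 62.5 to 66.1% and that of the 2-fold genes 75.5 to 84.1% without 1 library. The number of genes 4-fold apart in every WT pair, 24, became 13 with a mean of at least 5 FPKM, 13 without small RNA names, 103 at 2-fold and 14 at 8-fold, with 10 of the 10 genes at 2-fold and 0 at 8-fold. Without 1 library it was 24 to 61, the members 4 to 5, and those with 1 WT letter outside the SE range 1 to 2. Fewer pairs then have to pass: 54 without WT A vehicle, 43 without WT A DOX, 54 without WT B vehicle and 61 without WT B DOX. SE A against SE B called 2795 to 4596 genes without 1 library, lowest without SE B DOX (2795), SE A DOX (2843) and SE A vehicle (2879), and 1084 in the normalized table. Of the genes' tests there, CPT1A (-0.080) and NPY (-0.046) reversed in the normalized table. CPT1A passed with small RNA names left out (adjusted p = 0.0369) and with a treatment term (0.0192). NPY did not pass with no filter on low values, with SE libraries alone, without the trend or without any 1 of 5 libraries (limma adjusted p up to 0.179).

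DOX in WT called 8 genes in the normalized table, 2 with a mean of at least 5 FPKM, 0 without small RNA names, 12 with WT libraries alone and 4 to 12 without 1 library. In SE it called 0 without small RNA names and 5 to 24 without 1 library (24 without SE B DOX, 17 without SE A DOX). None of the 10 genes was called under any setting, and signs turned within the error: in the normalized table in WT for TMPRSS3 (-0.037), TLR10 (-0.034) and DDIT4L (-0.0013), and in SE for TMPRSS3 (-0.113), NKAIN4 (-0.231), LILRB4 (-0.204), CPT1A (-0.147), EGFL7 (-0.233) and NPY (-0.145). With equal medians they turned for TMPRSS3 (-0.0048) and TLR10 (-0.0032) in WT and EGFL7 (-0.0020) in SE, and with a pseudocount of 1 for TMPRSS3 in WT (-0.00021). Without 1 library, DOX minus vehicle in WT ran from -1.26 to 1.27 for TMPRSS3, -1.14 to 1.34 for IGJ, -1.07 to 0.76 for NKAIN4, -0.69 to 0.83 for LILRB4, -0.62 to 0.79 for CPT1A, -0.71 to 0.67 for KLRK1, -0.68 to 0.68 for TLR10, -1.60 to 1.13 for EGFL7, -1.26 to 1.32 for DDIT4L and -1.07 to 1.06 for NPY. In SE it ran from -0.35 to 0.61 for TMPRSS3, -0.36 to 0.30 for IGJ, -0.47 to 0.50 for NKAIN4, -0.51 to 0.58 for LILRB4, -0.014 to 0.20 for CPT1A, -0.084 to 0.012 for TLR10, -0.40 to 0.41 for EGFL7, -0.38 to 0.28 for DDIT4L and -0.026 to 0.22 for NPY. A lone library was taken to vary like the other groups.

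The main DOX fit did not take the letters as pairs, since the sources do not state that same-letter libraries came from 1 culture. The deviations of same-letter libraries correlated at 0.0732 in WT and 0.0929 in SE over all genes tested. Without small RNA names they correlated at 0.757 in WT and 0.72 in SE, so apart from those rows same-letter libraries did go together. The fit of SE A against SE B did group the libraries by letter. With a replicate block, EGFL7 in WT had DOX minus vehicle at -0.24 (95% interval -0.403 to -0.072, limma adjusted p = 0.996) and KLRK1 at -0.02 (95% interval -0.127 to 0.085), so the wide intervals without it come from the letters. With the block DOX called 6 genes in WT and 3 in SE, and 0 in both with equal medians and no small RNA names, where TMPRSS3 had -0.0012 in WT. The causes of these changes were not tested.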
